A study of Homo sapiens with 6 samples.

Results

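The genes described here were the protein-coding ZNF genes of human chromosome 19, chosen by name and position. They were the features of the count table whose Ensembl identifier carried a symbol of the form ZNF plus a number, with at most 1 letter after it, and which GENCODE 29 placed on chromosome 19 of GRCh38. There were 247 such genes among 61496 features, and all 247 were in the count table. The gene HKR1 of that annotation is listed under its present symbol, ZNF875.

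ZNF genes encode proteins with C2H2 zinc fingers, short loops that each hold a zinc ion and read a few bases of DNA, and long arrays of such fingers give each protein its own target sequence. Most ZNF genes of chromosome 19 also encode a KRAB domain, which recruits the corepressor KAP1 (TRIM28) and, through it, the histone methyltransferase SETDB1 and HP1 proteins that form heterochromatin. The family grew by tandem duplication, so relatives lie side by side in clusters, and many members are known for silencing retrotransposons of a given age and type.

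All libraries came from U251, a long-established line of human glioma cells. The control group was 3 libraries of untreated cells, and the Sev group 3 libraries of cells exposed to sevoflurane (Sev), a volatile anesthetic, for 2 h. The treatment protocol lists several Sev concentrations and the label of a library names none. The study describes its sequencing comparison as made at the highest of them, and the 3 Sev libraries were treated as replicates of that exposure. The labels do not say that the libraries of a group came from separate cultures, and the study's general statement on independent experiments does not name these libraries, so p-values measure the spread between these libraries, which may be technical.

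Library totals ran from 38624292 to 46318311 counts, and the 247 genes took 0.373% to 0.399% of the counts in control and 0.260% to 0.313% in Sev. The cells expressed the glial markers VIM (828 to 1027 FPKM), NES (192 to 232 FPKM) and GFAP (14.9 to 28.2 FPKM), and SOX9 ran from 40.4 to 48.8 FPKM. The other 4 of the 8 glial markers had groups that did not overlap: CHI3L1 was at 0.0319 to 0.0784 FPKM in control and 0 to 0.0158 in Sev, SOX2 was at 93.8 to 102 FPKM in control and 51.9 to 54.3 in Sev, S100B at 8.46 to 13.7 and 4.26 to 4.49, and CD44 at 31.7 to 34.1 and 56.7 to 60.9. Over all features tested, the groups did not overlap for 28.2% that were lower and 28.3% that were higher, so such groups were common. CHI3L1 had at most 14 counts in any library. The part of these markers in the results below was not tested. The 7 markers of leukocytes, endothelium, epithelium, neurons and oligodendrocytes summed to 1.08 to 1.49 FPKM in control and 1.004 to 1.14 FPKM in Sev, with PTPRC at 0 in 1 library and EPCAM at 0 in 3. Of these, PECAM1 had groups that did not overlap, at 0.0553 to 0.105 FPKM in control and 0.115 to 0.139 FPKM in Sev. A lower level in bulk RNA can come from fewer cells that express a gene or from less RNA per cell, and these cannot be told apart here.

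Expression of the ZNF genes was low, and the direction of change was mostly downward. Of the 247 genes, 227 passed the filter on low counts and were tested. Among them 100 were lower in Sev at an adjusted p under 0.05 (44.1%), 14 were higher (6.17%) and 113 were not called. Over all 27514 features tested, 21.5% were lower and 22.1% higher, and over the 15189 tested protein-coding genes the shares were 21% and 25%. The median log2 fold change of the ZNF genes was −0.56, beside −0.0056 over all features and 0.038 over protein-coding genes. In total 181 of the 227 lay below 0 and 46 above. All tests were quasi-likelihood tests in edgeR, adjusted by the Benjamini-Hochberg method over all features tested.

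The downward shift was present in each Sev library. Measured as the median over the 227 genes of log2 CPM minus the control mean, the libraries stood at 0.053, −0.044 and 0.016 in control and at −0.53, −0.69 and −0.38 in Sev. The ranges of the groups did not overlap, and Sev replicate 2 was the lowest and Sev replicate 3 the nearest to control. The same quantity over all features was within 0.011 of 0 in every library. Summed over the 247 genes, the level was 3718, 3639 and 3712 normalized CPM in control and 3043, 2832 and 3174 in Sev, or 81.8% of the control mean. On the FPKM scale the sums were 609, 571 and 597 in control and 465, 419 and 478 in Sev, or 76.6% of control.

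With a threshold of a log2 fold change beyond 1 at an unadjusted p under 0.05, 53 ZNF genes were lower (23.3%) and 2 were higher. The corresponding shares were 12% lower and 11.4% higher over all features, and 7.62% lower and 9.07% higher over protein-coding genes. Because this p is unadjusted, the 53 are not all among the 100 called lower, and they include ZNF559, which was not called. The control and Sev libraries did not overlap for 113 genes that were lower in Sev (49.8%, beside 28.2% of all features) and for 18 that were higher (7.93%, beside 28.3%). Of the 100 genes called lower, 98 were among those whose groups did not overlap, and 67 kept the call in every one of the 6 leave-one-out fits. Without a library the count of lower calls ran from 77, without Sev replicate 1, to 105, without Sev replicate 3. The count of higher calls fell from 14 to 7 without Sev replicate 1 and to 9 without control replicate 3.

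**Figure D1:**
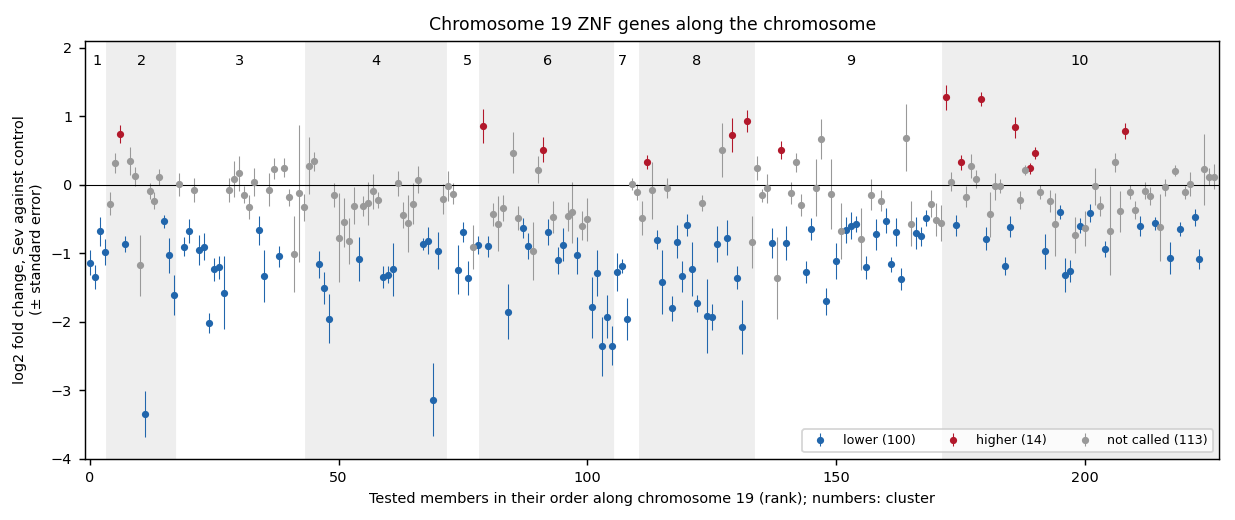
Log2 fold change (Sev against control, vertical axis) of the 227 tested ZNF genes in their order along chromosome 19 (horizontal axis, rank), with bars of 1 standard error. Shaded and white bands mark clusters 1 to 10. Blue points are the 100 genes called lower, red points the 14 called higher and grey points the 113 not called, and blue points occur in every cluster.

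The 20 genes that were not tested had at most 14 counts in any library, and 5 of them had none in any library. Of the 20, 9 lie in cluster 4 and include ZNF208 and ZNF729, which encode the longest finger arrays of the family. An expression level of 1.46 FPKM was the median of the 227 tested genes, with a range from 0.0313 to 33.1, beside a median of 3.15 FPKM for tested protein-coding genes.

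The promoters of the 3 lower and 2 higher genes with the smallest p-values are shown, among those whose RefSeq start lay within 50 bases of the GENCODE start, a condition that ZNF628 did not meet. They are shown because the members moved together, and because promoter letters are a feature that the choice of genes did not use. Each line is the 250 bases before the RefSeq start on GRCh38.p14, 5′ to 3′ on the strand of the gene, with matches to the motifs searched in capitals. They are ZNF439 at chr19:11848476-11848725 (plus strand), ZNF284 at chr19:44071909-44072158 (plus strand) and ZNF780B at chr19:40056232-40056481 (minus strand), all lower in Sev. ZNF787 at chr19:56121296-56121545 (minus strand) and ZNF776 at chr19:57746565-57746814 (plus strand) were higher in Sev.
ZNF439: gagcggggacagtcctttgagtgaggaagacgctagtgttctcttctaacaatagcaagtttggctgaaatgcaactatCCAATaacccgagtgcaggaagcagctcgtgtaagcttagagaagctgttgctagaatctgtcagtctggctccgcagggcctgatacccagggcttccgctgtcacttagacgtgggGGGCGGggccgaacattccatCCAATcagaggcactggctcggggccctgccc
ZNF284: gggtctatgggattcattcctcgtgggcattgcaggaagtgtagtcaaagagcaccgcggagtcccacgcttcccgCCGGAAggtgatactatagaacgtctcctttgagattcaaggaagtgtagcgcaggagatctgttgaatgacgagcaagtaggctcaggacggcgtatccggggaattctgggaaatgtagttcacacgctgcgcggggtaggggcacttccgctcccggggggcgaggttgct
ZNF780B: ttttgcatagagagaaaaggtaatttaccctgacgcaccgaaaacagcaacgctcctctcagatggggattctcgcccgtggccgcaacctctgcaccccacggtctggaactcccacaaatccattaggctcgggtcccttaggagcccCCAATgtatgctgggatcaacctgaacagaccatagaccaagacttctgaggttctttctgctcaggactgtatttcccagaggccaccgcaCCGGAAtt
ZNF787: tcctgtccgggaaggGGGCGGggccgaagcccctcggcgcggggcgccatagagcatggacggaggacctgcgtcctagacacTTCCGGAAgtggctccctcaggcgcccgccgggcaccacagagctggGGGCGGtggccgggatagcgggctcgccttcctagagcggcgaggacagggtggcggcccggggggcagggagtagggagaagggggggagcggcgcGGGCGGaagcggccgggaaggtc
ZNF776: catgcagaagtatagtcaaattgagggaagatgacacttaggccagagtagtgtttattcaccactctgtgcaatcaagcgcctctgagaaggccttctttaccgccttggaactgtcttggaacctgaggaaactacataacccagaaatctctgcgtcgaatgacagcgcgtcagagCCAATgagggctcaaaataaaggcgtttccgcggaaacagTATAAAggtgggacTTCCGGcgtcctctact

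The capitals in ZNF439 are a pair of CCAAT boxes around a GC box (GGGCGG), and those in ZNF284 are a single ETS motif (CCGGAA). ZNF780B has a CCAAT box and, nearer the start, an ETS motif. ZNF787 has 3 GC boxes and a palindrome in which the ETS motif matches on both strands, while ZNF776 has a CCAAT box, a TATA box (TATAAA) and an ETS motif on the other strand. GC content was 55.6%, 56.8% and 53.2% in the promoters of ZNF439, ZNF284 and ZNF780B, 74.8% in that of ZNF787 and 48.4% in that of ZNF776.

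RefSeq promoters of 250 bases before to 50 after the start were found for 216 of the 247 genes and for 15316 protein-coding genes in all. The letters CCGGAA, searched on both strands, were in 56.0% of the ZNF promoters and in 23.0% of all promoters. CCAAT was in 53.7% against 36.6%, and GGGCGG in 67.6% against 59.3%. TATAAA was in 1.85% against 9.59% and CACGTG, the E-box, in 4.17% against 8.87%. The CRE letters TGACGTCA (3.24% against 2.64%), the YY1 letters AAGATGGCG (3.70% against 2.80%) and the NRF1 letters GCGCATGCG (2.78% against 2.73%) were about as frequent as elsewhere. The ETS motif is read by a large family of transcription factors, many of which act at housekeeping promoters. It was in 56.0% of the 84 promoters of genes called lower, which is the share among all ZNF promoters, and in 46.2% of the 13 promoters of genes called higher. A match is a description of the letters and not a mapped binding site.

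ZNF439 had the smallest p-value among the genes lower in Sev. It is an 11-finger gene with a KRAB pattern in cluster 3 (ENSG00000171291, chromosome 19, 11848726 to 11883750, GRCh38). Its normalized CPM was 9.67, 9.77 and 10.4 in control and 2.44, 2.26 and 2.65 in Sev. The control values lay close together and about 4 times above the Sev values. The log2 fold change was −2.02 (SE, its standard error, 0.14, adjusted p = 0.000104).

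ZNF284 (cluster 8, 44072144 to 44089613) was at 11.5, 11.5 and 11.6 CPM in control and 3.504, 3.27 and 3.61 CPM in Sev. Replicates within a group differed far less than the groups, and the log2 fold change was −1.73 (SE 0.13, adjusted p = 0.000114). ZNF234 of the same cluster (44141557 to 44160309) went from 22.0, 19.9 and 19.7 CPM to 4.75, 4.39 and 6.97 CPM. That is a log2 fold change of −1.93, with Sev replicate 3 the nearest to control. ZNF221 (43951223 to 43967709) went from 9.31, 8.18 and 8.08 CPM to 2.76, 1.89 and 2.65 CPM, a log2 fold change of −1.81.

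ZNF780B in cluster 7 (40028260 to 40056209), with 21 fingers, was at 52.8, 47.4 and 49.7 CPM in control and 20.0, 22.4 and 23.3 CPM in Sev, a log2 fold change of −1.19 (SE 0.097, adjusted p = 0.000159). Every Sev library was below every control library. It shares 35.0% of its 12-residue words with the adjacent ZNF780A, so reads can be split between these copies, and how the counting treated such reads is not given in the sources used here. ZNF780A was lower too, with a log2 fold change of −1.97.

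ZNF493 in cluster 4 (21397119 to 21427573) fell from 14.3, 16.1 and 15.96 CPM to 5.89, 6.63 and 6.08 CPM, a log2 fold change of −1.32. ZNF160 in cluster 9 (53066606 to 53103436), with 20 fingers, fell from 46.7, 42.7 and 43.4 CPM to 21.1, 17.1 and 21.1 CPM, a log2 fold change of −1.16. Both sets of libraries were well apart.

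ZNF177 in cluster 2 (9363020 to 9382617) had the lowest log2 fold change of the family, −3.36 (SE 0.34, adjusted p = 0.000327). Its counts were 104, 140 and 117 in control and 15, 9 and 7 in Sev, or 2.46, 3.53 and 2.41 CPM against 0.398, 0.240 and 0.177 CPM. The Sev values rest on few reads. Its exons are shared with ZNF559-ZNF177, a readthrough transcript on the same strand, so reads of these 2 features are uncertain. The upstream partner ZNF559 ran from 7.02 to 20.5 CPM in control and from 4.76 to 10.7 CPM in Sev, groups that overlapped, and was not called (log2 fold change −1.18, adjusted p = 0.0631). ZNF681 in cluster 4, singled out after its values were seen, was the only other member under −3, with 156, 126 and 149 counts in control and 16, 2 and 25 in Sev (log2 fold change −3.14).

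**Figure D2:**
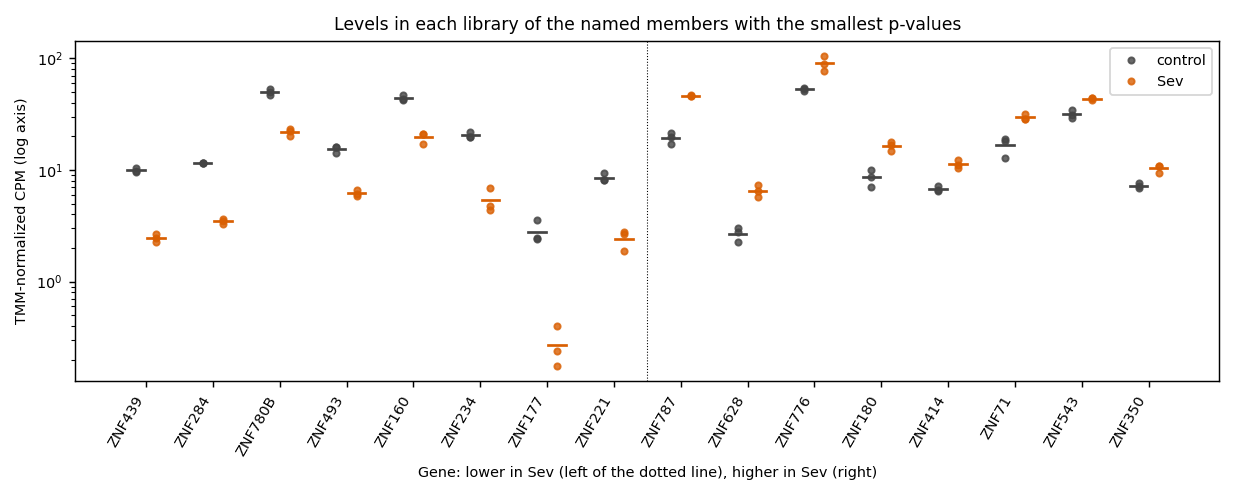
TMM-normalized CPM (vertical axis, log scale) in each control (grey) and Sev (orange) library for the 8 genes lower and the 8 genes higher in Sev with the smallest p-values among those whose groups did not overlap. Points are libraries and bars are group means, and ZNF177 reached the lowest levels in Sev.

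Among the 14 genes that were higher in Sev, only ZNF787 and ZNF628 passed the log2 fold change of 1. ZNF787 (cluster 10, ENSG00000142409, 56087366 to 56121280), with 7 fingers and no KRAB pattern, rose from 17.1, 21.4 and 19.9 CPM to 46.5, 46.0 and 46.2 CPM. The Sev libraries were almost equal, and the log2 fold change was 1.25 (SE 0.10, adjusted p = 0.000173). ZNF628 (cluster 10, 55476332 to 55484487), with 16 fingers and no KRAB pattern, rose from 3.002, 2.80 and 2.27 CPM to 6.504, 7.32 and 5.71 CPM, a log2 fold change of 1.28 (SE 0.18, adjusted p = 0.00123). Once the trend of each library on length and GC content was removed, an alternative chosen after seeing the data, these values were 0.98 and 0.96, so both remained called and neither passed 1.

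ZNF776 in cluster 10 (57746796 to 57758159) was already among the most expressed members and rose from 53.7, 50.7 and 53.4 CPM to 89.8, 76.3 and 104 CPM, a log2 fold change of 0.78. ZNF180 in cluster 8 (44474428 to 44500524) rose from 8.72, 10.1 and 6.98 CPM to 17.8, 14.7 and 16.7 CPM, a log2 fold change of 0.93. It lies beyond ZNF221, ZNF284 and ZNF234, which were all lower and were named by p-value. ZNF224 of the same cluster was not called. ZNF414 in cluster 2 (log2 fold change 0.74), ZNF71 in cluster 10 (0.84) and ZNF543 in cluster 10 (0.46) were also called in every fit that left out a library. ZNF350, known as ZBRK1, a partner of BRCA1 in repression, was at 6.95, 7.24 and 7.60 CPM in control and 10.8, 9.37 and 10.9 CPM in Sev (log2 fold change 0.51, adjusted p = 0.0143), a call lost without Sev replicate 1, with library size only and on the FPKM scale.

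By position, the 10 clusters of at least 3 members held 239 of the 247 genes. In each of the 10, the median log2 fold change was below 0 and more genes were lower than higher, under the main setting and under every alternative run. The share called lower, which can be read against 21.5% over all features, ran from 30.9% in cluster 10 to all tested members in clusters 1 and 7. None of the 6 tested members outside clusters was called, with a median of −0.065.

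Cluster 1 (ZNF554 to ZNF77, 2819874 to 2944971) had 4 tested members, all lower, with a median of −1.06. The member with the smallest p was ZNF555, at 18.8, 13.4 and 15.2 CPM in control and 5.31, 7.27 and 5.98 CPM in Sev (log2 fold change −1.35, adjusted p = 0.000941). Summed over its members, cluster 1 had 46.4, 35.7 and 41.2 CPM in control and 17.6, 18.2 and 20.9 CPM in Sev. The groups were well separated.

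Cluster 2 (ZNF557 to ZNF846, 7069444 to 9793180) was mixed, with 5 of 14 tested members lower, ZNF414 higher and a median of −0.26. The 39 tested coding genes that lie between its members and carry no zinc finger name had 14 higher, 5 lower and a median of 0.29. Cluster 3 (ZNF653 to ZNF791, 11483427 to 12640098) had 11 of 25 lower, none higher and a median of −0.32, beside −0.037 over 6 tested neighbours.

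Cluster 4 (ZNF101 to ZNF254, 19668796 to 24129961), which spans the pericentromeric end of the short arm and holds ZNF91 and ZNF93, had 11 of 28 tested members lower and none higher, with a median of −0.56. Its summed level was 319, 295 and 320 CPM in control and 226, 184 and 252 CPM in Sev. Every Sev value was under every control value.

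On the long arm, cluster 5 (ZNF302 to ZNF792, 34677639 to 34964049) had 4 of 5 lower and a median of −0.91. ZNF792 led it, at 13.7, 11.1 and 12.9 CPM in control and 6.66, 6.87 and 6.99 CPM in Sev. Cluster 6 (ZNF565 to ZNF573, 36182060 to 37817300) had 13 of 27 lower, 2 higher and a median of −0.63. Its leading gene was ZNF573, at 4.89, 4.39 and 4.33 CPM in control and 1.17, 0.506 and 0.984 CPM in Sev (log2 fold change −2.35, adjusted p = 0.0007). The 2 higher genes were ZNF568 and ZNF565. ZNF565 overlaps exons of ZNF146 on the other strand, and ZNF146, which consists almost wholly of fingers, was lower (log2 fold change −0.90). Whether strand was used in counting is not given in the sources used here, so reads of this pair are uncertain.

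Cluster 7 (ZNF546 to ZNF780A, 39984134 to 40090938) had all 3 members lower and past the threshold, with a median of −1.27. Its summed level was 93.8, 79.6 and 88.1 CPM in control and 28.8, 30.5 and 40.8 CPM in Sev. Cluster 8 (ZNF575 to ZNF296, 43525497 to 45076588) had 14 of 23 lower, 3 higher and a median of −0.83, while the 21 tested coding neighbours without a zinc finger name had 10 higher, 2 lower and a median of 0.34. The median of the members was below 0 and that of the neighbours above it.

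Cluster 9 (ZNF175 to ZNF331, 51571298 to 53580269) had 18 of 37 lower, ZNF350 as the single higher gene and a median of −0.58. Its 4 tested neighbours had 2 lower, 1 higher and a median of −0.66. Cluster 10 (ZNF628 to ZNF446, 55476332 to 58481230), at the end of the long arm, had 55 tested members, 17 lower and 7 higher, with a median of −0.22, and its 24 tested neighbours had 5 lower, 6 higher and a median of −0.071. It held 7 of the 14 higher calls of the family. Its summed level was 1351, 1310 and 1320 CPM in control and 1297, 1264 and 1295 CPM in Sev, so it differed little in sum while single members moved in both directions.

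**Figure D3:**
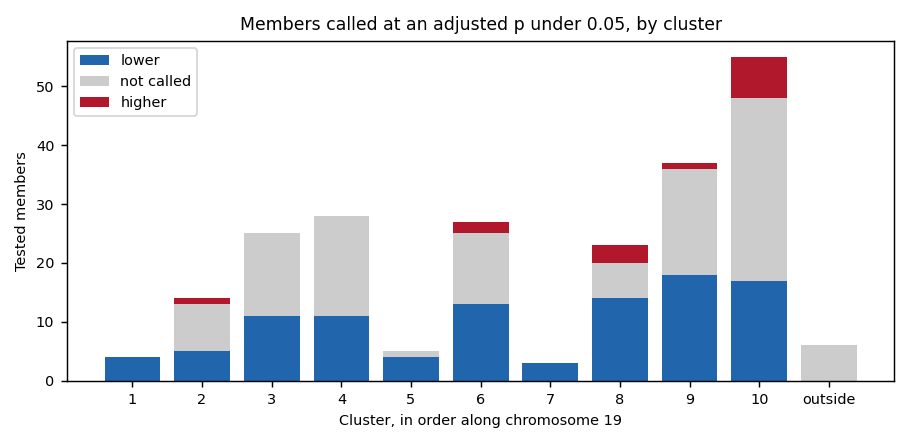
Number of tested ZNF genes (vertical axis) called lower (blue), not called (grey) and called higher (red) in each cluster along chromosome 19 (horizontal axis) and outside clusters. Clusters 1 and 7 are blue throughout. Cluster 10, the largest with 55 tested genes, has the most red, with 7 genes (12.7%).

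Several members have a described role in the silencing of retrotransposons. ZNF91, which represses SVA elements and has 31 fingers, was at 63.7, 58.9 and 57.3 CPM in control and 32.4, 30.6 and 35.6 CPM in Sev (log2 fold change −0.87, SE 0.093, adjusted p = 0.000423). ZNF93, which represses L1 elements, was at 7.19, 6.71 and 5.87 CPM in control and 1.25, 1.01 and 2.80 CPM in Sev (log2 fold change −1.96, adjusted p = 0.0037). The groups did not overlap for either gene, and both calls were kept without any 1 library.

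ZNF765 and ZNF649, which also bind L1 elements, had log2 fold changes of −0.49 (adjusted p = 0.0106) and −0.85 (adjusted p = 0.016), and the call of ZNF649 was lost without Sev replicate 1 (−0.86). ZNF417 and ZNF587 are paralogs that bind HERV-K sequences. ZNF417 fell from 43.5, 37.3 and 39.3 CPM to 27.1, 26.9 and 26.9 CPM (log2 fold change −0.57, adjusted p = 0.00223). ZNF587 was at 92.6, 95.7 and 93.2 CPM in control and 80.4, 101 and 69.8 CPM in Sev, groups that overlapped, and was not called (log2 fold change −0.16, adjusted p = 0.34), except when Sev replicate 2 was left out (log2 fold change −0.32). Without Sev replicate 3 the log2 fold change was −0.048. The proteins share 81.9% of their 12-residue words, so the split of reads between them is uncertain.

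ZNF808, a repressor of MER11 elements that is needed for pancreas development, varied widely within groups, from 6.41 to 18.4 CPM in control and from 5.35 to 11.2 CPM in Sev, and was not called (log2 fold change −0.68, adjusted p = 0.215). That value was −0.23 without control replicate 3 and −1.09 without Sev replicate 1. ZNF85 was called lower (log2 fold change −1.09, adjusted p = 0.0277), a call lost without control replicate 1, Sev replicate 2 or Sev replicate 3, with length and GC trends removed, and on log2(FPKM + 1) with no filter. ZNF43 (log2 fold change −0.45, adjusted p = 0.0908) and ZNF224, a cofactor of WT1 (log2 fold change −0.27, adjusted p = 0.0879), were not called, but both were called lower with library size only and without control replicate 1, and ZNF224 also on the FPKM scale. Other alternatives brought them nearer to no change. With length and GC trends removed ZNF43 was at −0.20 and ZNF224 at −0.15, and without Sev replicate 2 ZNF43 was at −0.29.

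Of the members known for promoter methylation in tumors, ZNF382 fell from 4.63, 5.25 and 2.41 CPM to 1.49, 0.586 and 1.31 CPM (log2 fold change −1.85, adjusted p = 0.00784). ZNF154 was at 18.7, 20.7 and 22.7 CPM in control and 26.7, 21.8 and 29.3 CPM in Sev, with 1 Sev library inside the control range (log2 fold change 0.33, adjusted p = 0.0884). It was called higher without that library, Sev replicate 2 (log2 fold change 0.44), and with length and GC trends removed. ZNF667 was at 16.1 ± 0.839 CPM (SD, n = 3) in control and 15.9 ± 0.641 CPM (SD, n = 3) in Sev, a difference within the replicate spread, and its log2 fold change of −0.021 changed sign in 4 alternatives. ZNF671 (log2 fold change −0.39, adjusted p = 0.317) and the imprinted gene ZNF331 (log2 fold change −0.56, adjusted p = 0.114) were not called. Without control replicate 2 the value of ZNF671 was −0.021 and without Sev replicate 2 −0.20, and without Sev replicate 1 that of ZNF331 was −0.31.

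The 5 most expressed members per length were ZNF460, ZNF428, ZNF358, ZNF776 and ZNF587, and none of them was lower in Sev by the test. ZNF460 had 32.0 FPKM in control and 34.1 FPKM in Sev on average. Its CPM was 153, 144 and 156 in control and 175, 171 and 187 in Sev, a log2 fold change of 0.24 (adjusted p = 0.0356) whose call was kept without only 1 of the 6 libraries. It was also lost with library size only (0.096), on the FPKM scale, without an expression filter, with the replicate block and with the length trend removed. ZNF428 was at 38.6, 46.8 and 45.6 CPM in control and 51.8, 57.3 and 14.6 CPM in Sev. Sev replicate 3 stood far below the other libraries, and without it the log2 fold change went from −0.084 to 0.32, neither of them called. ZNF358 ran from 23.7 to 29.5 CPM in control and from 29.5 to 40.7 CPM in Sev (log2 fold change 0.32, or 0.17 without Sev replicate 1, adjusted p = 0.111).

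Across the 227 tested genes the log2 fold change rose with the level. Spearman's correlation with the mean FPKM was 0.41, beside 0.11 over all tested protein-coding genes. Split at the median of 1.46 FPKM, the 114 genes at or below it had 59 lower (51.8%), 4 higher (3.51%) and a median of −0.76. The 113 above it had 41 lower (36.3%), 10 higher (8.85%) and a median of −0.23. Over all features 21.5% were lower and 22.1% higher. These points share libraries and the counts that enter both measures, so the correlation is a description only, and the part of the level in the shift was not tested. The correlation with transcript GC content was 0.28 among the ZNF genes and 0.15 among protein-coding genes. ZNF transcripts had a median GC content of 44.1% (34.3% to 71.0%), beside 49.6% for protein-coding genes. Removing the trends on length and GC content left 96 lower, 19 higher and a median of −0.47. The correlation was −0.13 with gene length, −0.057 with exon length and −0.15 with the number of fingers.

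The split by KRAB domain gave medians further apart than the splits by close copies or by shared exons, and about as far apart as the split by level. A KRAB A-box pattern was found in the translation of 210 of the 247 genes, and of its 194 tested genes 95 were lower (49.0%) and 8 higher (4.12%), with a median of −0.60. Of the 33 tested genes in which the pattern was not found, 5 were lower (15.2%) and 6 higher (18.2%), with a median of −0.021. The latter shares were near the 21.5% and 22.1% of all features. The 5 lower were ZNF491, ZNF146, ZNF781, ZNF524 and ZNF444. The 6 higher were ZNF787, ZNF628, ZNF180, ZNF414, ZNF576 and ZNF865. The pattern may miss a divergent domain, the split was chosen after the data were seen and no test was made between its sides, which also differed in promoter letters. CCGGAA was in 59.1% of the promoters with the pattern and 40.0% of those without, CCAAT in 58.6% and 28.6%, and median promoter GC content was 59.0% and 64.3%. Among the 194 tested genes with the pattern, Spearman's correlation of the log2 fold change was 0.34 with mean FPKM and 0.16 with transcript GC content. Over all 227 tested genes these were 0.41 and 0.28.

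**Figure D4:**
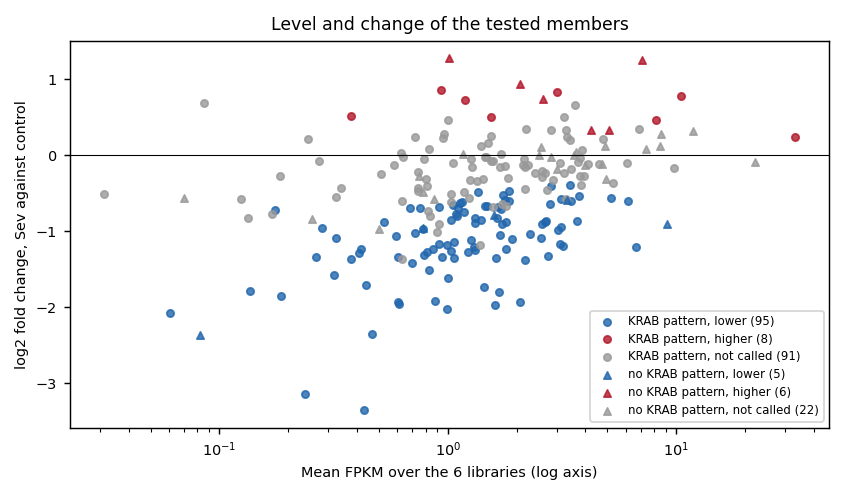
Log2 fold change (Sev against control, vertical axis) against mean FPKM over the 6 libraries (horizontal axis, log scale) for the 227 tested ZNF genes. Circles carry the KRAB pattern and triangles do not, with blue for lower, red for higher and grey for not called. Of the 100 blue points 59 lie at or below the median of 1.46 FPKM, and of the 33 triangles 5 are blue and 6 red.

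Other gene features that bear on counting were tabulated in the same way, again with the splits chosen after the data were seen. The 95 tested members with a close copy, meaning at least 10% shared 12-residue words with another member, had 52 lower (54.7%) and 1 higher (1.05%) with a median of −0.68. The 132 without had 48 lower (36.4%) and 13 higher (9.85%) with a median of −0.41. The 98 tested members that share no exon with another gene had 39 lower (39.8%), 8 higher (8.16%) and a median of −0.44. The 129 that share exons had 61 lower (47.3%), 6 higher (4.65%) and a median of −0.59. All these shares can be read against 21.5% lower and 22.1% higher over all features. The part of shared reads in the shift was not tested.

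The ZNF genes of other chromosomes were shifted less. Of 232 tested, 72 were lower (31.0%), 45 higher (19.4%) and the median was −0.22. For the chromosomes that hold the most of these genes, the medians were −0.23 over 29 tested genes of chromosome 7, 0.013 over 29 of chromosome 16 and 0.092 over 17 of chromosome 1. The remaining chromosomes were not tabulated apart, and the KRAB pattern was not searched in these genes. The other protein-coding genes of chromosome 19 went the other way, with 279 of 896 higher (31.1%), 137 lower (15.3%) and a median of 0.14. The 95 tested coding genes inside the clusters that carry no zinc finger name had 33 higher (34.7%), 14 lower (14.7%) and a median of 0.22. Over all features 22.1% were higher and 21.5% lower. These sets are shown side by side with no test between them.

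**Figure D5:**
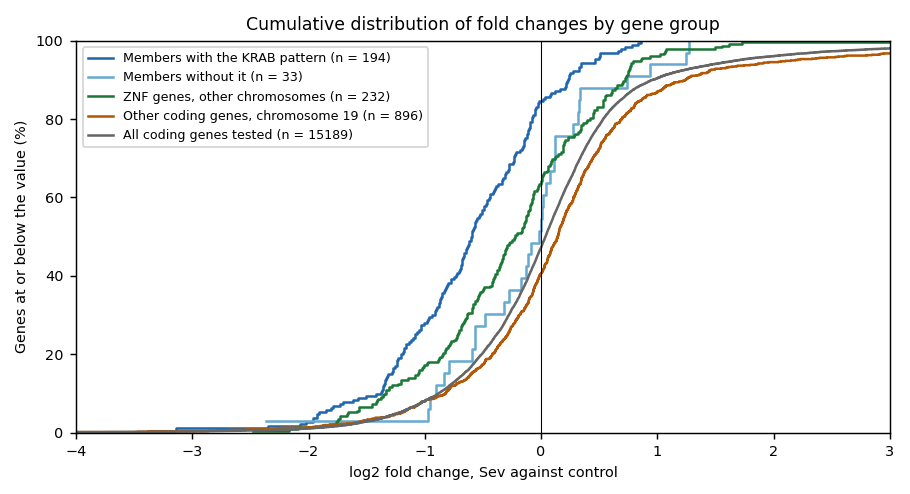
Cumulative share of genes (vertical axis, %) at or below a log2 fold change (Sev against control, horizontal axis, drawn from −4 to 3) for 5 gene groups. The curve of ZNF genes of chromosome 19 with the KRAB pattern (n = 194) lies to the left of the others over most of its length, and that of the other coding genes of the chromosome (n = 896) lies mostly to the right.

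KAP1 and the genes of the proteins it works with were read as a list of 25 genes, all tested. Of these, 7 were lower (28%, beside 21.5% of all features), 3 higher (12%, beside 22.1%) and none past the threshold, with a median of −0.068 that became 0.011 once length and GC trends were removed. With library size only, 12 were lower and 1 higher. TRIM28 itself, which lies just beyond cluster 10 (58544091 to 58550722), rose from 257, 285 and 293 CPM to 391, 401 and 383 CPM, a log2 fold change of 0.49 (SE 0.079, adjusted p = 0.00213). All Sev libraries were above all control libraries.

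SETDB1, the methyltransferase that KAP1 recruits, fell from 89.4, 84.4 and 82.4 CPM to 57.3, 50.4 and 58.4 CPM (log2 fold change −0.62, adjusted p = 0.00124). Its cofactor ATF7IP was lower (log2 fold change −0.90), as was TASOR, the scaffold of the HUSH silencing complex (−0.62). CBX5, the gene of HP1 alpha (−0.37), and the remodeler SMARCAD1 (−0.41) were lower as well, but neither was called once length and GC trends were removed. ATRX (−0.22, adjusted p = 0.0473) lost its call in most alternatives. The maintenance methyltransferase DNMT1 (0.35) and its partner UHRF1 (0.40) were higher, and both calls were lost with library size only, on the FPKM scale, and also when control replicate 1 or 3 or Sev replicate 1 was left out. That of DNMT1 was also lost without Sev replicate 2, and that of UHRF1 with length and GC trends removed.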

How the data were processed

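RNA sequencing covered 3 control and 3 Sev libraries of U251 cells, grouped by their labels. The authors deposited raw counts per gene for each library, and FPKM values for the same features, whose computation is not given in the sources used here. Per the labels, RNA was fragmented and given strand-specific adapters, and the submitters' processing notes name bcl2fastq 2.19, featureCounts and hg18. The aligner, the annotation, the strand setting of the counting and the handling of reads with several matches are not given in the sources used here. Positions and gene types were joined by Ensembl identifier from GENCODE 29 on GRCh38, and promoters by symbol from RefSeq.

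Library totals ran from 38624292 to 46318311 counts. Precision is limited by the 3 libraries per group and, for genes with few counts, also by depth. Counts were tested in R 4.3.3 with edgeR 4.0.16 (filterByExpr on the groups, TMM, glmQLFit and glmQLFTest, no covariate), with Benjamini-Hochberg adjustment over all 27514 features tested and a limit of 0.05. The threshold on fold change was a log2 fold change beyond 1 at an unadjusted p under 0.05, the cut stated in the study's methods. CPM values are TMM-normalized with no prior count, and the standard error was obtained from the log2 fold change and the F statistic (its size over the root of F). A gap of over 1 Mb between members opened a new cluster, and clusters needed 3 members. Zinc fingers and the KRAB A-box were counted as patterns in translated GENCODE transcripts.

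The members and gene lists were chosen with earlier results of these data known. Named were the 8 members with the smallest p in each direction among those called whose groups did not overlap, the 5 with the highest mean FPKM, 15 members with a described role, the member with the smallest p in each cluster, members counted apart in groups of at most 5, and, of the KAP1 list, TRIM28, SETDB1 and the called genes, of which 1 is not reported here. Alternative scalings were the size factors of DESeq2 and library size only. Other alternatives were the DESeq2 1.42.0 Wald test, dropping the expression filter, a minimum of 10 counts in each library, blocking on the replicate number, and leaving out 1 library at a time. FPKM values were tested with limma 3.58.1 after adding 1 or 0.1 and taking log2, keeping features that reached 0.5 FPKM in 3 libraries, and after adding 1 also with no such filter. Each library's trend on the length that the counts and FPKM imply for a feature was also removed. An alternative with the trends on that length and on GC content removed was added after the data were seen. The splits by KRAB pattern, level, shared exons and close copies were also added then. So were the sets of other zinc finger genes, pseudogenes and neighbours. The code was tested on simulated counts. No set test was run.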

Additional observations from a re-analysis of the deposited data

How the results depend on the processing

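The count of ZNF genes called lower was within 1.5 times its main value of 100 in every alternative, from 77 to 110, and between 74 and 100 of the main calls recurred in each. All 10 clusters kept a median below 0 and more lower than higher calls in each alternative. With library size only, the ZNF median was −0.70 while that of all features was −0.15, 8 ZNF genes were higher, and the KAP1 list had 1 higher, 12 lower and a median of −0.21. This scaling called 4665 features higher and 7502 lower in all. Without an expression filter 9 ZNF genes were higher.

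On log2(FPKM + 1), 3676 features were called higher and 6709 lower. The ZNF genes had 7 higher, 0 higher and 7 lower past the threshold, and a median of −0.37, beside −0.11 over all features. The KAP1 list had 1 higher, 12 lower and a median of −0.16. On log2(FPKM + 0.1), 3623 features were higher and 6530 lower, 7 ZNF genes were higher, and the KAP1 list had 1 higher, 12 lower and a median of −0.21. On log2(FPKM + 1) without a filter, 7 ZNF genes were higher, 0 higher and 7 lower were past the threshold and the median was −0.29, and the KAP1 list had 1 higher and a median of −0.16. The pseudocount of 1 compresses fold changes of genes with low FPKM. With length and GC trends removed, 0 ZNF genes were higher past the threshold, and the KAP1 list had 6 higher and a median of 0.011. Apart from the effect of the pseudocount, the cause of these moves was not tested.

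Leaving out each library gave 7 to 15 ZNF genes higher, 77 to 105 lower, 2 to 4 higher and 44 to 64 lower past the threshold, and a median of −0.57 to −0.49. The 4 higher past the threshold came when control replicate 2 or 3 or Sev replicate 2 was left out. The KAP1 list had 1 to 5 higher, the 1 after leaving out control replicate 1 or 3 or Sev replicate 1 and the 5 without control replicate 2, and 6 to 11 lower, the 11 without Sev replicate 2. Its median ran from −0.11 without Sev replicate 2 to −0.023 without Sev replicate 3.

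Of the log2 fold changes of the named ZNF genes, TRIM28 and SETDB1 under alternatives, 620 kept their direction and stayed on the same side of an adjusted p of 0.05, 23 lost the call, 10 gained it and 5 changed sign. The sign changes were ZNF428 without Sev replicate 3 (0.32, the top of a leave-one-out range from −0.39) and ZNF667 without control replicate 2 (0.013) or Sev replicate 3 (0.014, in a range from −0.065), with the length trend removed (0.040) and with length and GC trends removed (0.13). Of those of the other called KAP1 genes, 107 kept both, 28 lost the call, mostly of ATRX, UHRF1 and DNMT1, and 1 changed sign, that of ATRX with length and GC trends removed (0.082).

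The groups share replicate numbers, and same-numbered libraries deviated from their group means with correlations of −0.0072, 0.0035 and 0.027, so the numbers were not taken as pairs. With the replicate number as a block, 98 ZNF genes were lower and 10 higher, with a median of −0.54, and ZNF460 was no longer called. Pairs of replicates differed beyond sampling noise for 48.5% to 66.0% of 15608 abundant genes, so no pair agreed within that noise. For members with few counts, such as ZNF177 and ZNF681, the depth limits how well the Sev level is known.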

Other observations

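Zinc finger genes of chromosome 19 with other names were also read, as sets chosen after the data were seen. Of 17 protein-coding genes named ZFP, ZSCAN, ZIM, ZIK, ZBTB or PEG3, 9 were tested, 4 were lower (44.4%) and 0 were higher in Sev at an adjusted p under 0.05 (edgeR's quasi-likelihood test), with a median log2 fold change of −0.079. Over all features 21.5% were lower and 22.1% higher, and a share of 9 genes is imprecise. ZFP14, a KRAB zinc finger gene within cluster 6, was at 7.89 CPM in control and 1.51 CPM in Sev on average, a log2 fold change of −2.39 (adjusted p = 0.000262). ZFP82 (−1.19), ZSCAN22 (−0.90) and ZBTB32 (−0.90) were the other lower genes. ZFP30 (−0.029), ZFP28 (−0.079), ZIK1 (0.050), ZSCAN5A (0.19) and ZBTB45 (0.15) were not called.

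Of 17 ZNF pseudogenes of the chromosome, 8 were tested, 2 were lower (25%) and 1 higher (12.5%), with a median of −0.16, beside 21.5% lower and 22.1% higher over all features. The lower ones were ZNF321P (log2 fold change −0.94, adjusted p = 0.0088) and ZNF137P (−0.77, adjusted p = 0.0205), and the higher one was ZNF285BP (1.12, adjusted p = 0.0347). The gene ZNF285, which carries the same number, was lower, with a log2 fold change of −2.08, and reads of close copies can be split between them.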
